A study of Mus musculus with 17 samples.

Results

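Long intergenic RNA (lincRNA) promoters were taken as the autosomal accessible regions that lay within 1000 bp of the 5′ end of an annotated lincRNA gene and had no protein-coding transcription start within 1000 bp. Overlapping peaks of 17 ATAC-seq libraries were merged into 277655 regions on chromosomes 1 to 19 (GRCm38/mm10), and 1698 of them met this rule. The annotation was GENCODE vM21. The regions lay nearest to 1383 of the 5209 lincRNA genes on these chromosomes (26.6%), and 261 genes had more than 1 such region, so that regions of the same gene were not independent. Of the 2135 regions near a lincRNA 5′ end, 437 were left out because a coding gene started within the same distance.

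ATAC-seq uses the transposase Tn5, which inserts sequencing adapters into open DNA, so that a peak marks a stretch of accessible chromatin. The libraries came from NeuN+ (neuronal) nuclei sorted from the bilateral nucleus accumbens, a ventral striatal structure at the centre of reward processing, of C57BL/6 mice aged 52 to 54 days. The study's methods name the substrain C57BL/6J. Diestrus females, proestrus females and males received 10 mg/kg cocaine i.p. 1 h before collection, or no cocaine as controls, and each library pooled 3 animals. By the study's methods the controls were a baseline taken without that interval, so that cocaine, its injection and the time after it cannot be told apart. The male cocaine group had 2 libraries and the other 5 groups had 3 each. The stage of the second diestrus cocaine library was given by its title and was NA in its stage field.

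LincRNA genes are transcribed by RNA polymerase II from promoters of their own and lie outside coding genes. Their promoters are usually weaker and poorer in CpG islands than coding promoters, and their transcripts are often expressed in few tissues. Well-studied members include Malat1 and Neat1, which sit in nuclear speckles and form the scaffold of paraspeckles, Meg3, a maternally expressed RNA of the imprinted Dlk1-Dio3 domain, and the hosts of microRNAs and small nucleolar RNAs. Of the 1698 regions, 1173 were nearest to a gene with a provisional Gm symbol and 336 to one with a Rik symbol, whose functions are mostly unknown. The body of a coding gene was overlapped by 180 of the regions (10.6%). Another 5′ end, of a gene neither lincRNA nor protein-coding, lay within 1000 bp of 107.

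The libraries held 74532 to 155025 autosomal peaks, and the male cocaine libraries held the fewest (86626 and 74532, against 132654 to 148195 in male controls). The peak files hold no read counts, and the read numbers that the study lists were not used here. Peaks lay at the 5′ ends of all 4 neuron markers (Rbfox3, Snap25, Syt1 and Tubb3) in all 17 libraries, whereas 4 of 5 astrocyte, 4 of 5 microglia and all 4 endothelial markers had no peak in any library. Of the oligodendrocyte markers, Mbp had a peak in 17 libraries and Olig1 in 16, and the other 4 in 1 or 2, and of the astrocyte markers Gfap had one in 14. Of 9 medium spiny neuron markers, 5 were called in all 17 libraries, 3 (Pdyn, Adora2a and Bcl11b) in 16 and Drd2 in 5.

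The sequences of 3 sets of regions are shown first, since the results below turn on them. The first set holds the 6 regions whose accessibility was higher after cocaine over the 3 strata and whose summit, the base with the strongest signal, had an AP-1 site within 100 bp. AP-1 is the dimer of Fos and Jun proteins, which neuronal activity induces. The site searched was TGACTCA on both strands, and it is in capitals in the 201-bp summit windows, read 5′ to 3′ on the strand of the lincRNA gene in GRCm38. Of the summit windows of all 277655 regions, 7.75% held it. The 6 were picked after their values were seen.

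5430435K18Rik, chr5:151251838-151252038, plus strand: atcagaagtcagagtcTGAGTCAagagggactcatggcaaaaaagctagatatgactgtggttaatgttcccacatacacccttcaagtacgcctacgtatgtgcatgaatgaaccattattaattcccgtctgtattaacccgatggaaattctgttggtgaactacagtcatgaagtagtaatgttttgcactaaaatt

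Gm41230, chr14:99521901-99522101, plus strand: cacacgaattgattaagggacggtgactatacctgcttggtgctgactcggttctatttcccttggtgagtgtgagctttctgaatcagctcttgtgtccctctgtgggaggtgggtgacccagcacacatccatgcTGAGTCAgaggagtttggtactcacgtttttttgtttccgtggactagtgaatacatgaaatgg

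Gm36017, chr5:44427492-44427692, minus strand: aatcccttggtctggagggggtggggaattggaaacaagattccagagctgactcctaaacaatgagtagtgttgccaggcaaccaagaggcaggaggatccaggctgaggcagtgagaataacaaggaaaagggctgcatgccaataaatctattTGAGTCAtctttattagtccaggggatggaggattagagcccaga

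Gm29290, chr1:153940379-153940579, plus strand: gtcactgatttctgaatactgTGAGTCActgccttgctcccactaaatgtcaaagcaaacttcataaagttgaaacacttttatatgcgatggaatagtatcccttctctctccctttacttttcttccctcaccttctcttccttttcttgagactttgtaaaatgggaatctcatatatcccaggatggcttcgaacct

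4930590L14Rik, chr3:140950711-140950911, plus strand: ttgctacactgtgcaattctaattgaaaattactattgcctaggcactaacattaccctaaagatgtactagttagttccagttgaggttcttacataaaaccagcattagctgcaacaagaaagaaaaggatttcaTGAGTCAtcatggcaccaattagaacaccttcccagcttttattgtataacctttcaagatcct

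Gm15407, chr5:148820569-148820769, plus strand: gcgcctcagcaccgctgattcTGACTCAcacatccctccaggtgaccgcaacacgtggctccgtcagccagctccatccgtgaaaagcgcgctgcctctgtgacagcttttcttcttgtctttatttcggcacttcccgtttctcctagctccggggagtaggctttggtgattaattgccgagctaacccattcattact

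The second set holds the 3 regions with a peak in all cocaine libraries of both female stages and in none of the female controls. None of them held an AP-1 site on either strand of these windows. The other motifs searched, also on both strands and also not found in these 3 windows, were the cAMP response element, spelled TGACGTCA, the GC box, spelled GGGCGG, the binding site of ETS factors, spelled CCGGAAG, the E-box, spelled CACGTG, and the CCAAT box, spelled as named. The capitals mark a TATA box (TATAAA), present in Gm48721 only and in 17.7% of the summit windows of all regions.

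Gm48721, chr10:12010033-12010233, minus strand: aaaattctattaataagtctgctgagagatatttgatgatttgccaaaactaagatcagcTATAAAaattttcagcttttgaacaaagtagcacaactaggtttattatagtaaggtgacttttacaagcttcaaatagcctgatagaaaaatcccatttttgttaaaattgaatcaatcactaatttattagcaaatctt

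1700018B24Rik, chr3:48609685-48609885, minus strand: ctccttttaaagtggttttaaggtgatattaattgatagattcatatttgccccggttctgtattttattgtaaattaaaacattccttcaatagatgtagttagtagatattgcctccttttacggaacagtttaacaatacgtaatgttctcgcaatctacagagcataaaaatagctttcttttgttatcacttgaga

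AL805899.2, chr4:89038867-89039067, minus strand: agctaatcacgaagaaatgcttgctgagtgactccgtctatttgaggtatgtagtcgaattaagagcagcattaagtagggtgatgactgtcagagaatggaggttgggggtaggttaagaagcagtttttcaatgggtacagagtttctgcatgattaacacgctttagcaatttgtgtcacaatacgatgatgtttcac

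The third set shows CpG-rich lincRNA promoters that were open in every library, with GC boxes in capitals. They were picked as examples: of the lincRNA regions called in all 17 libraries, 21.9% held a GC box near the summit. The RefSeq promoter of Snhg12, whose region was also called in every library, held none and is not shown. The first sequence is the RefSeq promoter of Mir9-3hg (GRCm38.p6, 250 bases before to 50 after the start), and the second the summit window of 6720427I07Rik. By symbol, 589 of the 1383 lincRNA genes matched an entry of the RefSeq promoter table. A GC box was present in 35.7% of all 32851 RefSeq promoters and in 13.6% of the 730 promoters of the matched lincRNA genes.

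Mir9-3hg, chr7:79499776-79500075, plus strand: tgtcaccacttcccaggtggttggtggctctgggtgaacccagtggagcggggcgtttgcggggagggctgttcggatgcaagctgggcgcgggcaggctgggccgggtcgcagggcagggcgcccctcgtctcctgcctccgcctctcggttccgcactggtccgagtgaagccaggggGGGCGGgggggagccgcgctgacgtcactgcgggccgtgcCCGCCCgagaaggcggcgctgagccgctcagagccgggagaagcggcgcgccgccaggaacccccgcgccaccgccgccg

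6720427I07Rik, chr13:48546508-48546708, minus strand: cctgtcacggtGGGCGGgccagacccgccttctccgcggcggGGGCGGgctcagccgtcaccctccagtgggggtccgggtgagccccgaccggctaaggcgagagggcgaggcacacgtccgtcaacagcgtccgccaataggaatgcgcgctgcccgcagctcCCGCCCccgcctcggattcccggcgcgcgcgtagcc

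LincRNA promoters ranged from those open in every library to those called once. Of the 1698 regions, 512 (30.2%, Wilson 95% interval 28 to 32.4%, counting error only) were called in all 17 libraries, 376 in a single library and 810 in 2 to 16. The corresponding share of regions called in all libraries was 42.9% for the 28840 protein-coding promoter regions and 9.42% for the 247117 remaining regions. The share differed with position: 766 regions held the annotated 5′ end itself and 394 of these (51.4%) were called in all 17 libraries, whereas 118 of the 932 regions beside it were (12.7%). The strongest summit lay upstream of the gene in 872 regions, in an exon in 341, in an intron in 459 and past the 3′ end of the gene in 26, and it was within 250 bp of the 5′ end in 599. Near the limit of the rule, 12 of the 93 regions in the last 100 bp inside it and 8 of the 100 regions in the next 100 bp outside it were called in all libraries.

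**Figure D1:**
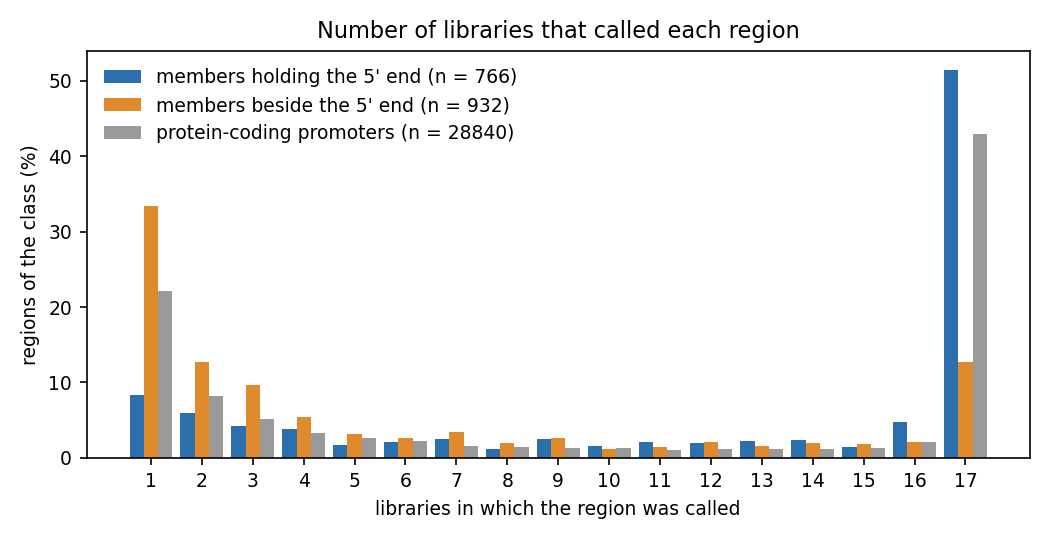
The x axis gives the number of libraries that called a region and the y axis the share of each class of regions in percent. LincRNA regions that held the 5′ end (blue, n = 766) piled up at 17 libraries (51.4%), regions beside it (orange, n = 932) at 1 library (33.5%), and coding promoters (grey, n = 28840) are shown for comparison.

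Regions open in all libraries were weaker than coding promoters. The median fold enrichment over local background, taken as the median over 17 libraries of each region, was 7.01 for lincRNA promoters, 11.3 for coding promoters and 5.25 for the other regions called throughout. The 512 stable lincRNA regions had a median width of 1860 bp, against 2888 bp for coding promoters. Their base composition was also intermediate: the observed to expected CpG ratio was 0.32 at the median for lincRNA promoters, 0.51 for coding promoters and 0.22 for other regions, and a GC box lay near the summit in 21.9%, 52.4% and 7.43%, respectively. The share of lincRNA regions called in all libraries was 17.8% at a CpG ratio under 0.2, 34.4% at 0.2 to 0.4, 37.4% at 0.4 to 0.6 and 44.8% at 0.6 or more. Across the 1698 regions, the number of libraries that called a region had a Spearman correlation of 0.22 with its CpG ratio and of 0.89 with its width. Width grows with the number of libraries merged, so these are descriptions, and regions are not independent replicates.

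The 10 most accessible lincRNA promoters were called in all libraries. The highest median fold enrichment, 221, was at Gm42418 (chr17:39842832-39849000), which RefSeq lists as an 18S ribosomal RNA related sequence, and its values ran from 139 to 757. Its signal can include reads of the ribosomal DNA repeats, which were not separated here. The other 9 of the 10 highest regions had medians of 30.4 to 53.4. 6720427I07Rik (chr13:48544595-48547718), whose GC boxes are shown above, ran from 41.5 in a diestrus cocaine library to 67.9 in another. The others in order were Gm26901 (48.1), Gm20732 (47.5), Gm34590 (42.5), Tmem250-ps (33.7), C920006O11Rik (33.4), Gm6410 (30.9), 6330576A10Rik (30.7) and Gm11527 (30.4), and the library values of neighbours in this order overlapped. On the normalized scale used below, 4 of these 10 passed a test of cocaine against control. Gm42418 fell over the strata (-0.44 ± 0.10), in diestrus (-0.53 ± 0.17) and in proestrus (-0.58 ± 0.17; limma adjusted p = 0.00419, 0.0343 and 0.04). Its diestrus groups overlapped on the raw scale (283, 757 and 622 in controls, 375, 170 and 139 after cocaine) and on the normalized one. Its normalized values were steps of rank shared by several libraries, with both male cocaine libraries at 7.70. Gm26901 rose in diestrus (0.38 ± 0.12) and fell in males (-0.46 ± 0.13; limma adjusted p = 0.0289 and 0.0204), Gm6410 rose in diestrus (0.30 ± 0.10, 0.0407), and Tmem250-ps rose in males (0.46 ± 0.11, 0.00764).

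Among lincRNAs with known roles, all 3 nuclear body RNAs, 5 of 8 microRNA hosts and 3 of 5 small nucleolar RNA hosts had a region called in all 17 libraries. Malat1 (chr19:5790143-5820470), a long merged region, had a median fold enrichment of 28.6 and ran from 16.5 to 44.3, Neat1 (chr19:5841101-5852124) had 13.2 and ran from 9.50 to 20.8, and Miat (chr5:112226308-112229604), which forms another nuclear domain, had 7.55. Of 8 microRNA host genes, 5 had a region, and each of the 5 had one called in all 17 libraries: Mir124a-1hg (median 23.8), Mir17hg (15.1), Mir9-3hg (14.2), Mir124-2hg (12.5) and Mir670hg (10.3). The strongest summits of the wide Mir124a-1hg and Mir124-2hg regions lay 6441 and 3981 bp after the 5′ end. miR-124 and miR-9 are the best-known microRNAs of neurons. The other listed hosts, Mir142hg, Mir155hg and C130071C03Rik, had no region, and hosts were not compared by cell type. Of 5 small nucleolar RNA hosts, Snhg6 (15.05), Snhg12 (12.5) and Snhg20 (5.90) were called in all 17 libraries, and Snhg10 and Snhg18 had no region. Of 5 lincRNAs on a list linked to developmental transcription factors, only Rmst, which lies on chromosome 10 and binds Sox2, had regions. These were called in at most 3 libraries, and their nearest coding gene was Nedd1, 551061 to 551984 bp away. The other 10 genes of that list and 5 of the 6 other imprinted genes listed are not of the lincRNA type and could not be included, and H19, which is, had no region. A listed gene with no region may have had one that was left out for a coding start within 1000 bp. This was not checked by gene.

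Members called per library ranged from 653 to 1067. The group means were 912 ± 54.9 (SD, n = 3) in diestrus controls, 859 ± 143 (n = 3) after cocaine in diestrus, 807 ± 54.1 (n = 3) in proestrus controls, 850 ± 34.4 (n = 3) after cocaine in proestrus, 1024 ± 54.3 (n = 3) in male controls and 682 ± 40.3 (n = 2) after cocaine in males. The male groups did not overlap (963 to 1067 against 653 and 710), and the diestrus and proestrus pairs did. The male cocaine libraries also held the fewest peaks, and the part of peak number in these counts was not tested. As a share of all regions called in the library, lincRNA promoters made up 0.922 to 0.945% in male controls and 1.03 and 1.09% after cocaine in males.

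**Figure D2:**
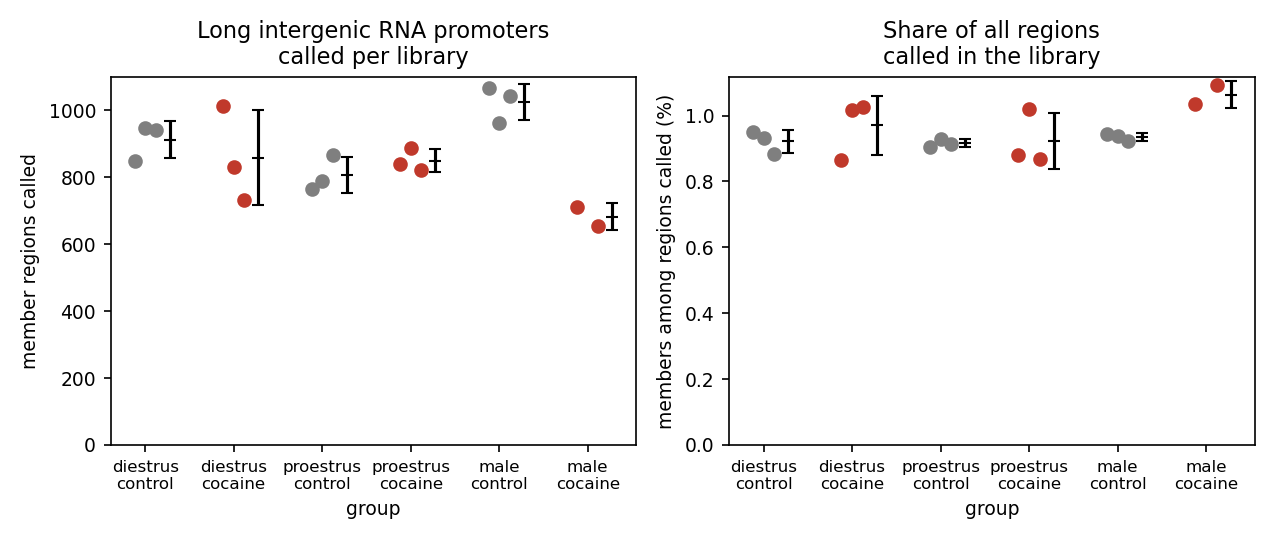
Each point is a library (grey: control, red: cocaine), with the group mean and SD beside it, for the number of lincRNA promoter regions called (left) and their share of all regions called, in percent (right). The male cocaine libraries were the lowest on the left (653 and 710) and among the highest on the right.

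To ask which lincRNA promoters opened or closed with acute cocaine, regions were compared by complete separation: a region counted as gained if all cocaine libraries of a stratum and none of its controls called it, and as lost in the reverse case. Such a pattern in 3 against 3 libraries cannot reach an exact p below 0.1, so the counts are given beside the share of all 145224 regions called in at least 2 libraries of some group that showed the same pattern; 1199 lincRNA regions were among these. In diestrus, 9 lincRNA regions were gained (0.751%, against 1.12% of all regions) and 10 were lost (0.834%, against 1.28%). In proestrus, 24 were gained (2.0%, against 2.42%) and 9 were lost (0.751%, against 1.65%). In males, 5 were gained (0.417%, against 1.68%) and 173 were lost (14.4%, against 16.7%). All 6 shares were below those of all regions, and none was tested against them.

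**Figure D3:**
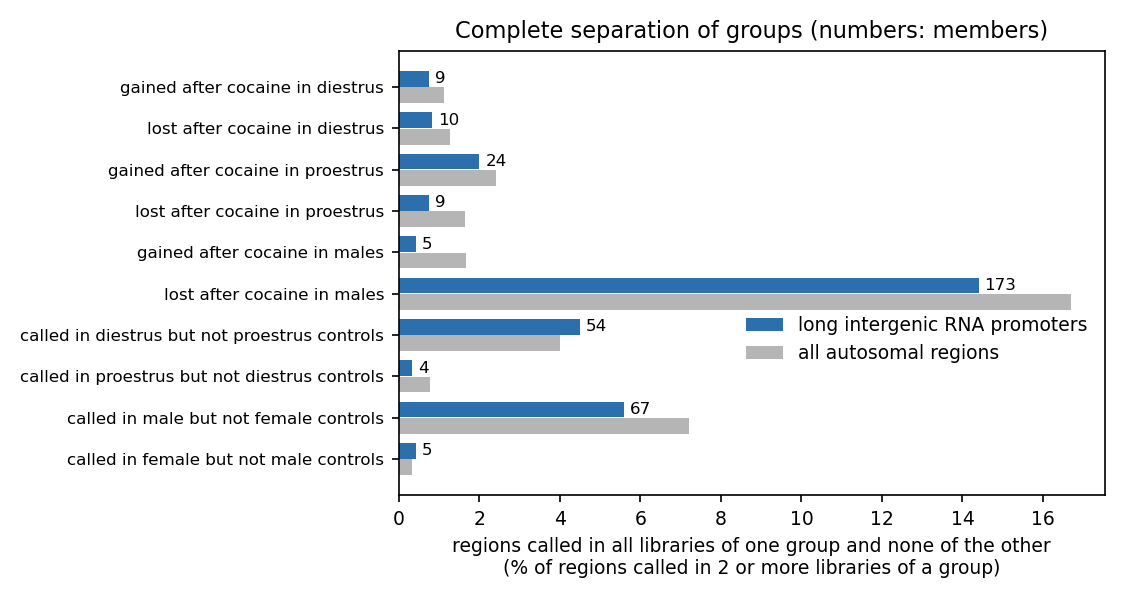
Bars give the share of lincRNA promoter regions (blue, numbers are counts) and of all autosomal regions (grey) that were called in every library of one group and no library of the other, in percent of the regions called in 2 or more libraries of a group. The loss after cocaine in males stands out in both classes (14.4 and 16.7%).

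Of the gained regions, 3 were gained in both stages of the estrous cycle, and no region was lost in both. At 1700018B24Rik (chr3:48609524-48610029) the fold enrichment was 2.97, 2.89 and 2.64 after cocaine in diestrus and 3.10, 2.57 and 2.93 after cocaine in proestrus, and none of the 11 other libraries called a peak. AL805899.2 (chr4:89038590-89039191) showed 3.68, 3.02 and 3.33 in diestrus and 3.51, 2.78 and 3.87 in proestrus, again with no call elsewhere. At Gm48721 (chr10:12009826-12010470) the values were 2.85, 3.02 and 2.64 in diestrus and 2.50, 3.31 and 3.14 in proestrus, and a male control (3.17) and a male cocaine library (3.14) also called it. All these peaks were weak (2.50 to 3.87), and the median of lincRNA regions called in only 1 library was 2.67. Over all autosomes, 289 of the 145224 regions were gained in both stages and 50 were lost in both.

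Other gained regions were ranked by mean fold enrichment over all libraries that called them. The highest in diestrus were Gm28497 (4.63, 6.92 and 4.36 after cocaine in diestrus), Gm45788 (3.92, 3.90 and 2.76) and AC162035.2 (3.21, 5.03 and 3.91). Gm28497 and Gm45788 were also called in all 3 male controls (5.10, 4.68 and 4.06, and 2.68, 4.54 and 2.96) and in 2 of 3 proestrus controls. In proestrus the highest by this mean were Gm12434 (3.91, 4.06 and 3.87), Gm5444 (4.91, 4.60 and 3.87) and Gm35326 (3.81, 3.21 and 4.71). Gm5444 and Gm35326 were also called in all 3 male controls (8.92, 6.89 and 6.15, and 4.46, 4.96 and 4.28) and in 2 of 3 diestrus controls. The coding gene nearest to Gm12434, 47879 bp away, was Nr4a3, an activity-induced nuclear receptor, and the region was also called in all 3 diestrus cocaine libraries (4.27, 6.67 and 4.71) in 1 of 3 diestrus controls (3.10), in a male control (3.31) and in a male cocaine library (3.25). In males the 3 highest by this mean among the 5 gained were Gm28380 (2.95 and 2.67), Gm26936 (3.17 and 3.49) and 4933424H11Rik (2.84 and 2.79). Gm28380 was also called in female libraries of both stages. An AP-1 site lay near the summit of 4 of the 24 regions gained in proestrus (16.7%, against 17.3% of all regions gained there), 1 of the 9 gained in diestrus (11.1%, against 21.7%), and none of the 5 gained in males (4.14% of all regions gained there).

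Lost regions included some that were strong in controls. In diestrus, 4930543K20Rik (chr10:37263520-37263978) showed 7.75, 5.36 and 5.71 in controls and no call after cocaine, Gm29264 (chr5:149247787-149248404) showed 7.23, 6.25 and 5.60, and Gm30074 showed 3.61, 3.80 and 3.01. In proestrus, 4930423D24Rik (7.71, 5.11 and 3.70 in controls), AC131675.1 (3.38, 3.6 and 2.94) and 2700054A10Rik (2.22, 3.25 and 2.46) were lost, and 4930423D24Rik and AC131675.1 were called in no other library. In males, 4930478E11Rik (10.6, 10.1 and 11.0 in controls), Gm47715 (8.41, 9.36 and 9.44) and 1700009C05Rik (8.41, 7.30 and 7.57) were the highest lost regions by mean over the libraries that called them. 4930543K20Rik and Gm29264 also had high values in proestrus controls (11.3 to 24.4 and 9.19 to 15.8) and were not called in the second male control.

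The counts moved when single libraries were left out, which relaxes the rule. Without replicate 1 of diestrus cocaine, whose 155025 peaks were the most of any library, 85 regions were lost in diestrus and 16 gained, and without its replicate 3, 23 were gained. Leaving out a diestrus control gave 14, 18 or 15 gained and 25, 18 or 19 lost. In proestrus, 42 were gained without control replicate 3, 44 without cocaine replicate 2 and 40 without cocaine replicate 4, and 27, 20 and 17 were lost without control replicates 1, 2 and 3 and 22 without cocaine replicate 2. In males, 17 or 23 were gained without cocaine replicate 1 or 2. When the 74532 strongest peaks of each library were kept, so that all had the same number, 71 lincRNA regions were lost and 13 gained in males, and 8779 and 3873 of all regions. The part of peak number in the male result was otherwise not tested.

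Over all libraries, with 8 cocaine and 9 control libraries, no lincRNA promoter was called more or less often after cocaine by Fisher's exact test (two-sided) after Benjamini-Hochberg adjustment over the 65507 regions called in 4 to 13 libraries, of which 403 were lincRNA regions, and 0.0% of all regions passed. At an unadjusted p under 0.05, 12 lincRNA regions (2.98%) were called more often, against 3.61% of all regions, and 41 (10.2%) less often, against 9.02%. 1700018B24Rik and AL805899.2, called in 6 of 8 cocaine and none of 9 control libraries, had an unadjusted exact p of 0.00226, and Gm48721 (7 of 8 against 1 of 9) had 0.00337. In the other direction, Gm20443, called in all 9 control and 2 of 8 cocaine libraries, and Gm35696, in 7 and none, had 0.00226, and 4930543K20Rik, in 8 and 1, had 0.00337.

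The level of accessibility was compared at the 512 lincRNA promoters called in all libraries, on the log2 scale after quantile normalization, with limma over the 36170 regions called throughout. Over the 3 strata, 27 lincRNA promoters were higher after cocaine and 51 lower (adjusted p under 0.05 over all regions), which is 5.27 and 9.96% against 7.41 and 7.68% of all regions. The median change was -0.02 for lincRNA promoters and 0.00 for all regions. In diestrus 26 were higher and 39 lower (5.08 and 7.62%, against 6.67 and 6.31%), in proestrus 10 and 17 (1.95 and 3.32%, against 2.64 and 2.46%, or 5.1% of all regions in either direction) and in males 18 and 28 (3.52 and 5.47%, against 3.52 and 5.12%, or 8.65% in either direction). The split depended on the scaling: with median centring 31 were higher and 40 lower over the strata and 26 and 22 in males, and without normalization 8 and 62 over the strata and 0 and 175 in males, where the median of all regions fell by 0.39. In diestrus the split was 6 and 5 without normalization and 35 and 34 with centring by GC content (below), and in proestrus 4 and 14 with median centring and 3 and 2 without normalization. For all 36170 regions, median centring gave 2983 and 2116 over the strata, 2092 and 1477 in males and 575 and 705 in proestrus. Without normalization the counts were 479 and 3217 over the strata, 110 and 11708 in males, 558 and 186 in diestrus and 528 and 29 in proestrus. Centring by GC content gave 2727 and 2219 in diestrus. Since a quantile-normalized value is relative to the other regions, changes on that scale are relative to the other regions of a library.

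The sequence of the higher and the lower regions is given as a description, with no test. An AP-1 site lay near the summit in 6 of the 27 lincRNA promoters that were higher over the strata (22.2%) and in 1 of the 51 that were lower (1.96%), and in 25.5 and 6.12% of all regions that were higher and lower. Among all 512 the share was 10.2%. The higher regions had a median GC content of 44.6% and the lower ones 49.6%. Across the 512 regions, the Spearman correlation of the change with GC content was -0.22 over the strata, -0.25 in diestrus, -0.34 in proestrus and 0.12 in males, as a description over regions of the same libraries. When each library was centred within 20 bins of GC content, a step chosen after seeing the data, 33 were higher and 49 lower over the strata and 10 and 8 in proestrus. Of all 36170 regions, 2752 and 3036 over the strata and 663 and 679 in proestrus were. The part of GC content was otherwise not tested.

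The 3 higher regions with the lowest p over the strata were Gm26530, C130073E24Rik and 5430435K18Rik. At Gm26530 (chr3:116489420-116490116) the fold enrichment was 3.49, 4.35 and 4.67 in diestrus controls and 5.94, 6.54 and 5.17 after cocaine, 3.27, 3.37 and 3.98 in proestrus controls and 6.61, 5.03 and 5.13 after cocaine, and 4.08, 2.89 and 3.07 in male controls and 3.94 and 4.42 after cocaine. On the normalized scale the 8 cocaine libraries lay above all 9 controls, with a log2 change of 0.59 ± 0.10 (SE; limma adjusted p = 0.000294). C130073E24Rik (chr8:50914288-50918795) rose by 0.60 ± 0.11 (limma adjusted p = 0.000436), with 5.03, 4.91 and 5.60 in diestrus controls against 9.38, 11.7 and 6.78 after cocaine. Its proestrus groups overlapped (0.17 ± 0.18, adjusted p = 0.58). 5430435K18Rik (chr5:151251661-151252452), with an AP-1 site 84 bases before its summit, rose by 0.50 ± 0.10 (limma adjusted p = 0.00101), and on the normalized scale its groups did not overlap within any stratum, although the raw diestrus values did (4.13, 5.14 and 5.50 against 8.67, 6.79 and 5.28). Within single strata it passed in males only (0.67 ± 0.18, limma adjusted p = 0.0166; diestrus 0.0606, proestrus 0.162).

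Of the lower regions, Gm40787 (chr10:121488315-121489485), near Rassf3, fell in all 3 strata. Its fold enrichment was 8.78, 10.9 and 9.86 in diestrus controls and 9.97, 7.80 and 4.48 after cocaine, 8.76, 8.35 and 7.49 in proestrus controls and 5.91, 4.71 and 5.45 after cocaine, and 13.5, 12.9 and 16.8 in male controls and 6.23 and 7.21 after cocaine. The log2 change was -0.51 ± 0.16 in diestrus, -0.73 ± 0.16 in proestrus and -0.66 ± 0.18 in males (limma adjusted p = 0.0342, 0.0107 and 0.0184), and the normalized groups did not overlap in any stratum. Gm14340 (chr2:180821934-180826928) fell by 0.62 ± 0.10 over the strata (limma adjusted p = 0.000235), and on the normalized scale every cocaine library lay below every control, although the raw values overlapped (4.13 to 12.1 against 8.97 to 15.9). Gm47734 (chr13:37506459-37506852) had the largest fall of the named regions, -0.97 ± 0.15 over the strata and -1.45 ± 0.24 in proestrus (limma adjusted p = 8.47e-05 and 0.00214), from 15.9, 11.1 and 10.1 in proestrus controls to 3.40, 4.38 and 7.33 after cocaine.

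The values of Gm47734 across the 17 libraries were close to those of 4930543K20Rik (Pearson r = 0.97 on log2 of fold enrichment plus 1, n = 17, a description) and of Gm29264 (r = 0.89), the 2 regions lost in diestrus above. Of the 78359 regions called in at least 8 libraries, 127 on all autosomes had a correlation of at least 0.9 with 1 of these 3, and their median width was 391 bp against 1102 bp. These 127 included 4 lincRNA regions, which were the 3 themselves and Gm47416. The only 1 of the 78 changed regions among them was Gm47734 itself, so these counts were largely set by the choice of the 3. Near the summit (within 60 bp), 24 of the 127 (18.9%) held one and the same string of 12 letters, against 78 of the 78359 (0.0995%), and Gm47734, 4930543K20Rik and Gm29264 did not hold it. The string was picked as the most frequent one among the 127, so these shares are a description. By eye its letters resemble a primate Alu repeat, which was not checked against a human sequence, and a contribution of DNA from another source to the values of these 3 regions was not tested.

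**Figure D4:**
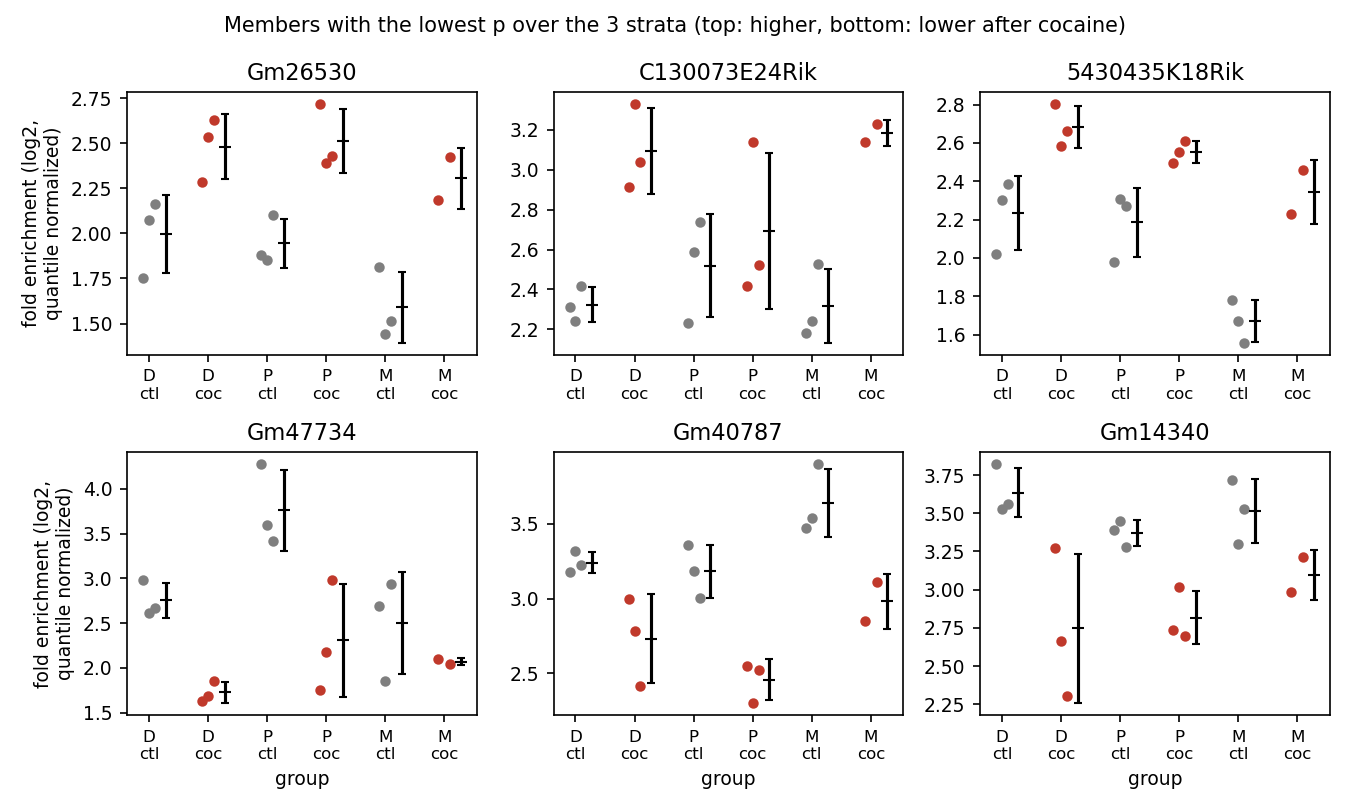
Fold enrichment (log2, quantile normalized) of the 3 lincRNA promoters with the lowest p in each direction over the strata, by library (grey: control, red: cocaine; D: diestrus, P: proestrus, M: male), with group mean and SD. Gm26530 and Gm14340 show no overlap between the 8 cocaine and 9 control libraries.

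Within single strata, the regions with the lowest p that rose in diestrus were Gm9916 (chr3:118427786-118439020), Gm33651 (chr3:143575338-143576252) and Gm44066 (chr6:128841750-128845105). Gm9916 had 4.78, 4.80 and 5.08 in controls and 8.19, 10.3 and 7.81 after cocaine (0.81 ± 0.16, limma adjusted p = 0.00337), Gm33651 had 2.58, 2.90 and 3.63 against 4.63, 6.54 and 6.89 (0.96 ± 0.20, 0.00358), and Gm44066 had 19.6, 23.9 and 21.1 against 31.2, 38.4 and 26.6 (0.51 ± 0.11, 0.00439). AC166748.2 (chr19:8251846-8252554) fell most, from 25.9, 80.3 and 60.3 to 35.6, 17 and 17.3 (-1.11 ± 0.19, limma adjusted p = 0.00159), although the raw groups overlapped. Its values followed those of Gm42418, the ribosomal RNA related region (Pearson r = 0.97, n = 17, a description). Gm32486 (chr7:139297124-139302715) fell in diestrus (-0.76 ± 0.14) and in proestrus (-0.54 ± 0.14, limma adjusted p = 0.0024 and 0.0259).

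In proestrus, Gm48843 (chr10:14191974-14197753) rose from 7.92, 8.93 and 9.48 to 15.5, 13.9 and 14.2 (0.69 ± 0.12, limma adjusted p = 0.00392), and Gm10165 (chr12:43843988-43844996) from 3.70, 2.90 and 3.13 to 5.91, 4.81 and 7.64 (0.84 ± 0.21, 0.021). Gm36017 (chr5:44427092-44427874), whose summit coincided with its annotated 5′ end and whose AP-1 site is shown above, rose from 3.38, 4.99 and 4.74 to 7.11, 8.98 and 7.54 (0.77 ± 0.17, limma adjusted p = 0.0114). AC167363.1 (chr17:29053775-29054889) fell from 5.81, 4.41 and 4.93 to 2.40, 3.21 and 2.51 (-1.02 ± 0.19, limma adjusted p = 0.00472). Raw and normalized groups of these 4 regions did not overlap in proestrus.

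In males, the 3 regions that fell with the lowest p had higher values in the 3 male controls than in every other library. Gm47972 (chr10:126961654-126963802) had 7.14, 8.54 and 7.79 in controls and 2.84 and 2.56 after cocaine (-1.18 ± 0.20, limma adjusted p = 0.000199), AC132307.2 had 9.31, 8.68 and 6.37 against 2.95 and 2.79 (-1.10 ± 0.18, 0.000189), and AC141471.3 had 11.1, 10.2 and 9.66 against 3.28 and 3.84 (-1.09 ± 0.19, 0.000339). In the 12 female libraries these 3 regions had values of 2.53 to 6.14. C130073E24Rik (0.87 ± 0.20), Gm48276 (0.59 ± 0.15) and Tmem250-ps (0.46 ± 0.11) rose in males on the normalized scale (limma adjusted p = 0.00605, 0.00956 and 0.00764). The raw values of Gm48276 were 11.2, 10.2 and 10.5 in male controls and 12.9 and 11.9 after cocaine, and those of Tmem250-ps overlapped.

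These counts rested on few libraries. Without replicate 1 of diestrus cocaine, 132 lincRNA promoters were called over the strata in place of 78, 162 in diestrus in place of 65 and 51 in proestrus in place of 27, and without replicate 1 of male cocaine 44 were called over the strata. In diestrus, 9 or 10 were called without cocaine replicate 2 or 3 and 27 or 20 without control replicate 2 or 3. In proestrus, 6, 6 and 9 were called without control replicates 1, 2 and 3, and 6, 56 and 9 without cocaine replicates 1, 2 and 4. In males, 23 and 17 were called without control replicates 2 and 3 and 10 and 8 without cocaine replicates 1 and 2, which leaves a single cocaine library assumed to vary like the others.

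Of the 13 regions of listed lincRNAs that were called in all libraries, 4 passed the limma test in diestrus, where 13% of all regions did. Meg3 (chr12:109538453-109544181) had 26.2, 39.1 and 36.6 in diestrus controls and 37.8, 28.4 and 16.7 after cocaine, and fell on the normalized scale (-0.38 ± 0.12, limma adjusted p = 0.0361). Malat1 had 32.0, 43.0 and 41.7 against 44.3, 28.9 and 16.5, and fell likewise (-0.49 ± 0.13, limma adjusted p = 0.0152). The raw groups of both overlapped in diestrus. Mir17hg rose in diestrus, from 8.91, 11.7 and 8.09 to 10.1, 23.5 and 15.5 (0.67 ± 0.20, limma adjusted p = 0.0259), as did Pvt1, the neighbour of Myc, from 4.26, 5.36 and 4.67 to 6.53, 9.43 and 6.43 (0.61 ± 0.17, limma adjusted p = 0.0177). In proestrus and in males, none of these 13 regions passed the limma test. Neat1, Miat, the miR-124, miR-9 and miR-670 hosts and the 3 small nucleolar RNA hosts passed in none of the 4 comparisons of cocaine with control, with log2 changes over the strata of -0.20 to 0.21.

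Between control groups, complete separation was seen in both the stage and the sex comparison. Called in all 3 diestrus and no proestrus controls were 54 regions (4.5%, against 4.0% of all regions), and in the reverse 4 (0.334%, against 0.788%). By mean over all libraries that called them, the highest of the first were Gm29483 (7.36, 4.80 and 5.50), Gm43522 (6.71, 5.47 and 4.25) and AC141882.2 (6.07, 4.47 and 4.67). The highest of the second were 4930423D24Rik, AC131675.1 and Gm39822 (2.43, 2.78 and 3.22). Gm39822 had its highest values in male controls (9.56, 6.75 and 9.22). Without a single library, 5 to 15 regions were called in proestrus alone: 13, 15 and 7 without proestrus control replicates 1, 2 and 3 and 9 and 8 without diestrus control replicates 2 and 3. By sex, 67 lincRNA regions were called in all 3 male and no female controls (5.59%, against 7.2% of all regions) and 5 in all 6 female and no male controls (0.417%, against 0.317%). Without male control replicate 2 the count in males was 102, and without male control replicate 1 the count in females was 8. Male controls held 132654 to 148195 peaks, more than each proestrus control (121156 to 131702) and overlapping the diestrus controls (127205 to 144699).

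Gm47715 (8.41, 9.36 and 9.44), 1700009C05Rik (8.41, 7.30 and 7.57) and Gm37839 (5.74, 5.37 and 6.04) were the highest by mean over the calling libraries among regions called in male but not female controls. None of them was called in a male cocaine library. The 5 regions of females were Mirg, 4930458A03Rik, Gm38948, Gm45702 and Gm10684, of which the last 2 are outside the rule for named regions. Mirg (chr12:109726361-109730064), a microRNA-rich RNA of the imprinted domain of Meg3, had 2.84, 4.24 and 3.01 in diestrus and 3.17, 3.83 and 3.13 in proestrus controls. It was also called in all 6 female cocaine libraries and in 1 of 2 male cocaine libraries (2.95).

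By level, 66 of the 512 stable lincRNA promoters were higher in male than in female controls and 77 lower by limma (12.9 and 15%, against 13.2 and 12.7% of all regions). Without normalization 163 were higher and 9 lower, and 11073 and 601 of all 36170 regions. Without male control replicate 2 or 3, 70 or 84 were called in all in place of 143. AC132307.2 (0.96 ± 0.14), Gm11840 (1.13 ± 0.18) and Gm47733 (0.96 ± 0.16) were higher in males (limma adjusted p = 9.02e-06, 2.13e-05 and 6.97e-05). Gm11840 (chr4:12007527-12009586) had 9.94, 9.09 and 11.2 in male controls and 3.24 to 4.12 in the 6 female controls, with no overlap. AC166748.2 (-1.63 ± 0.17), Gm48276 (-0.78 ± 0.11) and Gm46378 (-0.68 ± 0.12) were lower (limma adjusted p = 2.82e-08, 9.02e-06 and 0.000159), and the first had 15.3, 12.4 and 16 in male and 21.9 to 80.3 in female controls. Meg3 was lower too (28.1 to 28.4 in males, 24.2 to 39.1 in females; -0.39 ± 0.10, limma adjusted p = 0.00635).

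Whether the change after cocaine differed between strata was tested with interaction terms in the same limma fit, added after the other results were seen. Between diestrus and proestrus, no lincRNA promoter differed at an adjusted p under 0.05, and 2 of the 36170 regions did (0.00553%). Between males and females, 100 of the 512 differed (19.5%, against 19.8% of all regions), 50 in each direction (9.77% each, against 9.77% of all regions with a higher and 9.99% with a lower change in males). For 13 of the 16 named regions among them, the male change and both female changes had opposite signs. At all 16, the male minus female difference in change was opposite in sign to the male minus female difference among controls. The same control libraries enter both, so they are not independent.

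**Figure D5:**
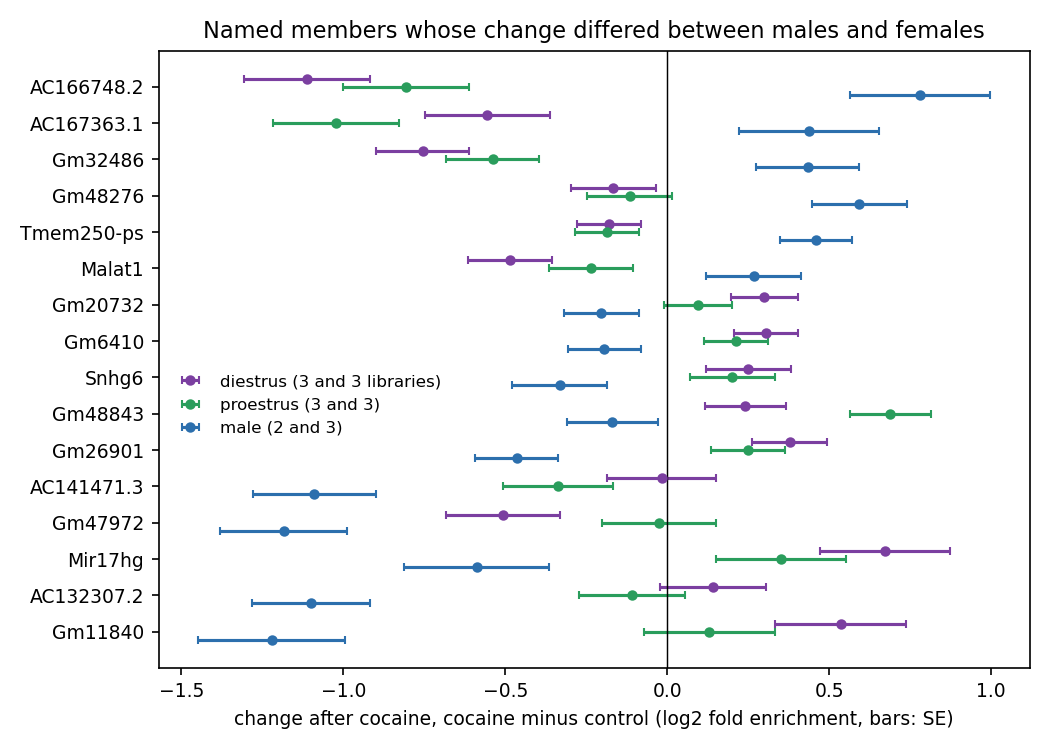
Change after cocaine (cocaine minus control, log2 fold enrichment after quantile normalization, bars are SE) in diestrus, proestrus and males for the 16 named lincRNA promoters whose change differed between males and females by limma. AC166748.2 was lower in both female stages and higher in males, and Gm11840 changed by -1.22 in males.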

How the data were processed

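ATAC-seq peaks of 17 libraries of sorted NeuN+ nuclei were analysed. According to the study's methods, the authors removed adapters, used BWA-MEM for alignment to mm10 and ran MACS2 on each library. Their processing notes also name featureCounts and DESeq2, whose output was not used here, and versions are not given in the sources used here. The deposited peak files give for each peak a fold enrichment over background as a ratio, a −log10 p-value and q-value, and a score, all within 1 library and not scaled between libraries. The smallest −log10 q was 1.31. Read depth is unknown from these files, and the number of libraries limits the precision. Replicates are pools of different animals per the study's methods.

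Peaks on chromosomes 1 to 19 that overlapped by at least 1 bp were merged, and each region took its highest fold enrichment per library. Groups came from the sample titles. Comparisons were complete separation among regions called in at least 2 libraries of a group, Fisher's exact test (scipy 1.17.1) on regions called in 4 to 13 libraries, and limma 3.58.1 (R 4.3.3) with 6 group means and trended variance on quantile-normalized log2 fold enrichment of regions called in all 17 libraries, with Benjamini-Hochberg adjustment over all regions at 0.05. The scripts were tested on simulated data. GENCODE vM21 gave genes, and RefSeq the promoter sequence. The build was checked: 51.5% of coding 5′ ends lay in a peak of a diestrus control, against 5.26% once the ends were shifted far along the chromosome. No pair of libraries shared more than 0.07% of identical intervals.

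The regions, gene lists and motifs were chosen with earlier results of these data known. Named regions were the 10 of highest median fold enrichment, the 3 of highest mean fold enrichment over all libraries that called them in each separation, the 3 of lowest p in each direction of the Fisher and limma comparisons, and all regions of the listed genes. Alternatives were a −log10 q of at least 5, the 74532 strongest peaks of each library, 500 bp in place of 1000, exclusion by coding gene 5′ ends only, Fisher's test on 1 to 16 libraries, median centring, no normalization, a replicate block and each library left out. Centring in 20 GC bins and the interaction terms were added after seeing the data.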

Additional observations from a re-analysis of the deposited data

Results flagged for a closer look

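The change after cocaine differed between males and females at 16 named lincRNA promoters (limma interaction, adjusted over 36170 regions), given here as the male change minus the mean female change on the log2 scale. It was positive at AC166748.2 (1.74, limma adjusted p = 4.29e-05), AC167363.1 (1.23, 0.00209), Gm32486 (1.08, 0.000391), Gm48276 (0.73, 0.00494), Tmem250-ps (0.64, 0.00166) and Malat1 (0.63, 0.0122). At these 6 the male change was above 0 and both female changes were below it on the quantile-normalized scale. Without normalization, 0 lincRNA promoters were higher after cocaine in males and 175 lower, and 110 and 11708 of all 36170 regions. The raw values of Malat1 overlapped (34.4, 26.6 and 28.5 in male controls, 28.6 and 28.2 after cocaine).

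It was negative at Gm11840 (-1.55, limma adjusted p = 0.000331), AC132307.2 (-1.12, 0.00105), Mir17hg (-1.10, 0.0057), Gm47972 (-0.92, 0.0076), AC141471.3 (-0.91, 0.0063), Gm26901 (-0.78, 0.00121), Gm48843 (-0.63, 0.00875), Snhg6 (-0.56, 0.0233), Gm6410 (-0.45, 0.0172) and Gm20732 (-0.40, 0.038). AC132307.2, Gm47972 and AC141471.3 did not have opposite signs in males and in both female stages. The male cocaine group holds 2 libraries, those with the fewest peaks. At all named regions in either direction, the sign was opposite to that of the male minus female difference among controls. The same control libraries enter both, so they are not independent. Of the 512 lincRNA promoters tested, 19.5% passed the interaction test, against 19.8% of all regions.

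By calls alone, 3 lincRNA regions (Gm28497, Gm6260 and Gm45788) were gained after cocaine in diestrus and lost in males, and 5 (Gm40649, Gm35326, Gm40932, Gm41336 and Gm13905) were gained in proestrus and lost in males. Among all 145224 regions, of which 1199 were lincRNA regions, 281 and 686 showed these 2 patterns. These differences between strata were not tested. Gm6260, Gm40649, Gm40932, Gm41336 and Gm13905 are outside the rule for named regions.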

How the results depend on the processing

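No named region changed sign under an alternative in the comparison it was named for. Other changes, such as those of Malat1 and AC167363.1 in males, were not part of that check. Their raw male values overlapped (4.97, 3.58 and 5.38 in controls, 4.81 and 4.30 after cocaine at AC167363.1). The balance of higher and lower regions turned with the scaling. In males it went from 18 and 28 to 26 and 22 with median centring. In diestrus it went from 26 and 39 to 6 and 5 without normalization and 35 and 34 with GC centring. In proestrus it went from 10 and 17 to 3 and 2 and 10 and 8, respectively. By sex it went from 66 and 77 to 163 and 9 without normalization. For all 36170 regions it went in males from 1274 and 1853 to 2092 and 1477 with median centring. By sex it went for all regions from 4762 and 4584 to 11073 and 601 without normalization. With peaks of −log10 q of at least 5, 33.3% of lincRNA regions were called in all libraries, 5 were gained and 6 lost in diestrus, 1 was gained in males, 33 were called in diestrus but not proestrus controls and 0 in female but not male controls. With the 74532 strongest peaks these values were 36.3% called in all, 6 lost in diestrus, 13 gained and 71 lost in males, 31 in diestrus controls and 2 in female controls. Within 500 bp, 36.7% were called in all, 2 were gained in males and 2 were called in proestrus but not diestrus controls. Without normalization, 11 changed in diestrus, 5 in proestrus and 175 in males, where 2.06, 1.54 and 32.7% of all regions did. Fewer peaks or regions enter by construction under the first 3, and the cause was otherwise not tested.

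Leaving out 1 library gave 30.2 to 30.9% called in all, 12 to 23 gained and 12 to 85 lost in diestrus, 28 to 44 gained and 11 to 27 lost in proestrus, and 5 to 23 gained and 193 to 243 lost in males. Between controls it gave 57 to 79 in diestrus only, 5 to 15 in proestrus only, 68 to 102 in males only and 5 to 8 in females only. By Fisher's test it gave 0 to 0 in both directions. By limma it gave 44 to 132 changed over the strata, 9 to 162 in diestrus, 6 to 56 in proestrus, 8 to 67 in males and 70 to 170 between the sexes.

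Replicate numbers were not treated as pairs. Same-numbered deviations from the group means correlated at -0.23, 0.00 and -0.14 (diestrus), 0.15 and 0.10 (proestrus), and 0.01 and 0.01 (male). Deviations from means of 2 or 3 libraries depend on each other, so these values cannot show whether samples were paired. With the replicate block, 9 lincRNA promoters changed in proestrus (2 higher and 7 lower), and the other 4 limma counts were within 1.5 times. Fold enrichment depends on the background of each library, so that weak peaks near the calling limit, such as those gained in both stages, are the least certain.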
